A study of Homo sapiens with 12 samples.

Results

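The histone cluster genes were taken as every row of the deposited expression table whose symbol carries an older cluster name, HIST1 to HIST4 followed by the histone type, and 73 of 26210 rows met this rule. They comprised 6 H1, 18 H2A, 20 H2B, 14 H3 and 15 H4 genes, of which 56 belong to cluster 1 on chromosome 6, 13 to cluster 2 and 3 to cluster 3 on chromosome 1, and 1 to cluster 4 on chromosome 12. Of the 70 symbols matched to the GENCODE v44lift37 annotation, 67 were protein coding, 3 were pseudogenes and 69 had a single exon. Levels are FPKM, that is, fragment numbers scaled by the authors to transcript length and for differences in size between libraries.

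Total RNA depleted of ribosomal RNA was sequenced from 5 human B-lineage cell lines in 12 libraries, 2 for each of 6 groups. KM-H2, L1236 and L428 are lines from Hodgkin lymphoma (HL), Namalwa is a Burkitt lymphoma line and Reh is a pro-B lymphoblastic leukaemia line, and none of these libraries came from treated cells. The sixth group was Reh exposed to 2 ng/ml of phorbol myristate acetate (PMA), an activator of protein kinase C that the study used as an inflammatory stimulus; the exposure time of the RNA-seq cells was not given in the sources used here. No group carried an introduced gene or deletion. The HL lines were grown in IMDM and Namalwa and Reh in RPMI, so medium and disease cannot be told apart, and each disease entity was represented by 1 to 3 established lines. Libraries are called library 0 and library 1 after the endings of their columns. The labels do not say whether duplicates came from separate cultures, so p-values measure only the spread between duplicate libraries, which may be technical.

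Nucleosomes wrap DNA around a core of H2A, H2B, H3 and H4, and the linker histone H1 binds where DNA enters and leaves that core. Most cluster genes lack introns and are transcribed during DNA replication, and the factor NPAT is found at the clusters. Their mRNAs end in a conserved stem-loop in place of a poly(A) tail. The stem-loop is bound by SLBP, and poly(A) selection therefore misses these transcripts while total RNA retains them.

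The stem-loop was looked for first because it decides which RNA method sees a histone mRNA. A run of 16 letters (GG, any 2 bases, CTTTT, any base, AG, any base, GCC) was searched on the sense strand of the 120 bases after the stop codon in GRCh37, the build of the deposited data. It occurred in 64 of 67 protein-coding members (95.5%) and in 66 of 19791 protein-coding genes (0.333%). HIST1H3E, HIST1H2BI and HIST1H4L lacked this run in that window. A match is a description of the sequence and not evidence of processing. The 4 forms held by several members and that of HIST1H2AG follow with their flanks, 5′ to 3′, with the stem-loop in capitals.
HIST1H1B, chr6:27834570-27834595, minus strand: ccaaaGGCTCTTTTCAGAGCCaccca
HIST1H1A, chr6:26017260-26017285, minus strand: ccaacGGCTCTTTTAAGAGCCaccta
HIST1H4C, chr6:26104540-26104565, plus strand: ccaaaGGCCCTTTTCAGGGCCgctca
HIST1H4I, chr6:27107428-27107453, plus strand: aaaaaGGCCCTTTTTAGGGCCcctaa
HIST1H2AG, chr6:27101289-27101314, plus strand: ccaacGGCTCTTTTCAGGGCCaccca
The form of HIST1H1B was held by 39 members and that of HIST1H1A by 9. The form of HIST1H4C was held by 9 members and that of HIST1H4I by 4, all of them H4 genes. HIST1H2AG, HIST2H2AC and HIST1H2AK each had a form of their own.

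Promoter letters separated the histone types. In the 200 bases before the annotated transcript start, the octamer ATTTGCAT was found on either strand in 12 of 16 H2B genes (75.0%) and 7 of 17 H2A genes (41.2%), against 1.29% of all protein-coding genes, and in no H1, H3 or H4 gene. The letters AAACACA, on either strand, were present in 6 of 6 H1 genes and in 3.18% of all genes. CCAAT, on either strand, was present in every H1, H2B and H3 promoter but in 28.6% of H4 promoters, close to the 29.0% of all genes, and the sense-strand letters TATAAA in 58.2% of members and 6.17% of all genes. CCAAT can share its last letters with the start of ATTTGCAT, and TATAAA with the start of AAACACA, and absence says only that the letters are not in the window. The 120 bases before the start are printed, with these motifs in capitals on either strand, for some of the members whose level differed between lines in the results that follow.
HIST1H1B, chr6:27835367-27835486, minus strand: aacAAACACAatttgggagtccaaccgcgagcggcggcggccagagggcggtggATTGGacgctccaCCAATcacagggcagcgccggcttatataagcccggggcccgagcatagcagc
HIST1H1C, chr6:26056699-26056818, minus strand: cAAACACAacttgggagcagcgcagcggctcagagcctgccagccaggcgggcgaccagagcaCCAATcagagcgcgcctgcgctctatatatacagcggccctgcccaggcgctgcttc
HIST1H3E, chr6:26225243-26225362, plus strand: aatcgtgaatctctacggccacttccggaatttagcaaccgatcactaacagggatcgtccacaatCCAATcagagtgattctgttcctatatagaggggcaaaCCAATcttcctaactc
HIST1H2BB, chr6:26043942-26044061, minus strand: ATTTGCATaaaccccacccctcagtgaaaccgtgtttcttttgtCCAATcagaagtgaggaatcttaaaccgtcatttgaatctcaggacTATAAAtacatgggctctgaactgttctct
HIST3H2A, chr1:228645575-228645694, minus strand: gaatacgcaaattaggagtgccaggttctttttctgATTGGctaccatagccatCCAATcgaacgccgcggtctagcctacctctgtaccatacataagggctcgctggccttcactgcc
HIST3H2BB, chr1:228645684-228645803, plus strand: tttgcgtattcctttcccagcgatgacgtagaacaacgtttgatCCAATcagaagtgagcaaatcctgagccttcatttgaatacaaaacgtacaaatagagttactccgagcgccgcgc
HIST1H1C is shown as the H1 gene that stayed high in every library, beside HIST1H1B, which did not. HIST3H2A and HIST3H2BB are divergent neighbours whose starts are separated by 229 bases.

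Before the results, 4 libraries stood apart. In L1236 library 1, L428 library 1 and both PMA libraries, the ribosomal protein gene RPS27 was at 0.357 to 2.75 FPKM, against 3981 to 10813 FPKM in the other 8 libraries, and the median of 76 ribosomal protein genes was 340 to 818 FPKM against 1360 to 2374. The HL receptor gene TNFRSF8 (CD30) was at 19.1 to 63.7 FPKM in the HL libraries and at most 0.505 FPKM elsewhere, whereas CSF1R, another gene used as an HL marker, was at 0.246 to 2.05 FPKM in HL and at 11.8 and 11.2 FPKM in PMA-treated Reh. The B-cell genes CD79A and CD79B were at most 2.55 FPKM in the HL libraries. Another B-cell gene, PAX5, was at 33.8 and 19.8 FPKM in L1236 and at most 1.84 FPKM in KM-H2 and L428, and BLNK was at most 6.93 FPKM in HL. MS4A1 was listed at 0 in HL and was at most 0.328 FPKM in the Reh groups. DNTT, a marker of B-cell precursors, was listed above 0 in the Reh groups alone, but VPREB1, another such marker, was listed at 0 there. Of 5 markers of other cell types, CD3E, EPCAM and LYZ were under 1 FPKM in every library, while KM-H2 held the monocyte gene CD14 at 5.79 and 4.56 FPKM and the collagen gene COL1A1 at 1.06 and 3.67 FPKM, both under 1 FPKM in the other lines. The read total per library was unknown, because the table gives no counts.

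Histone mRNAs were among the abundant transcripts of these libraries. Of the 73 members, 33 exceeded 100 FPKM in all 12 libraries and 46 exceeded 1000 FPKM in at least 1, while 4 stayed under 1 FPKM throughout. HIST1H2AA and HIST1H2APS1 were listed at 0 in all 12. The highest mean level over the 12 libraries was that of HIST1H3B, an H3.1 gene, at 2106 FPKM with a range of 868 to 3348 FPKM. HIST1H1C, which encodes H1.2, followed at a mean level of 1943 FPKM, HIST1H4C at 1866 FPKM, HIST1H1E, which encodes H1.4, at 1822 FPKM and HIST1H2AG at 1683 FPKM. These 5 genes overlapped one another in their ranges over the libraries. The next means were 1433 FPKM for HIST1H2BD, 1417 FPKM for HIST1H3H, 1406 FPKM for HIST1H1B, 1338 FPKM for HIST2H2BF, 1303 FPKM for HIST1H2BC, 1169 FPKM for HIST1H2AI and 1103 FPKM for HIST1H3G. The top 12 thus included each of the 5 types.

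**Figure D1:**
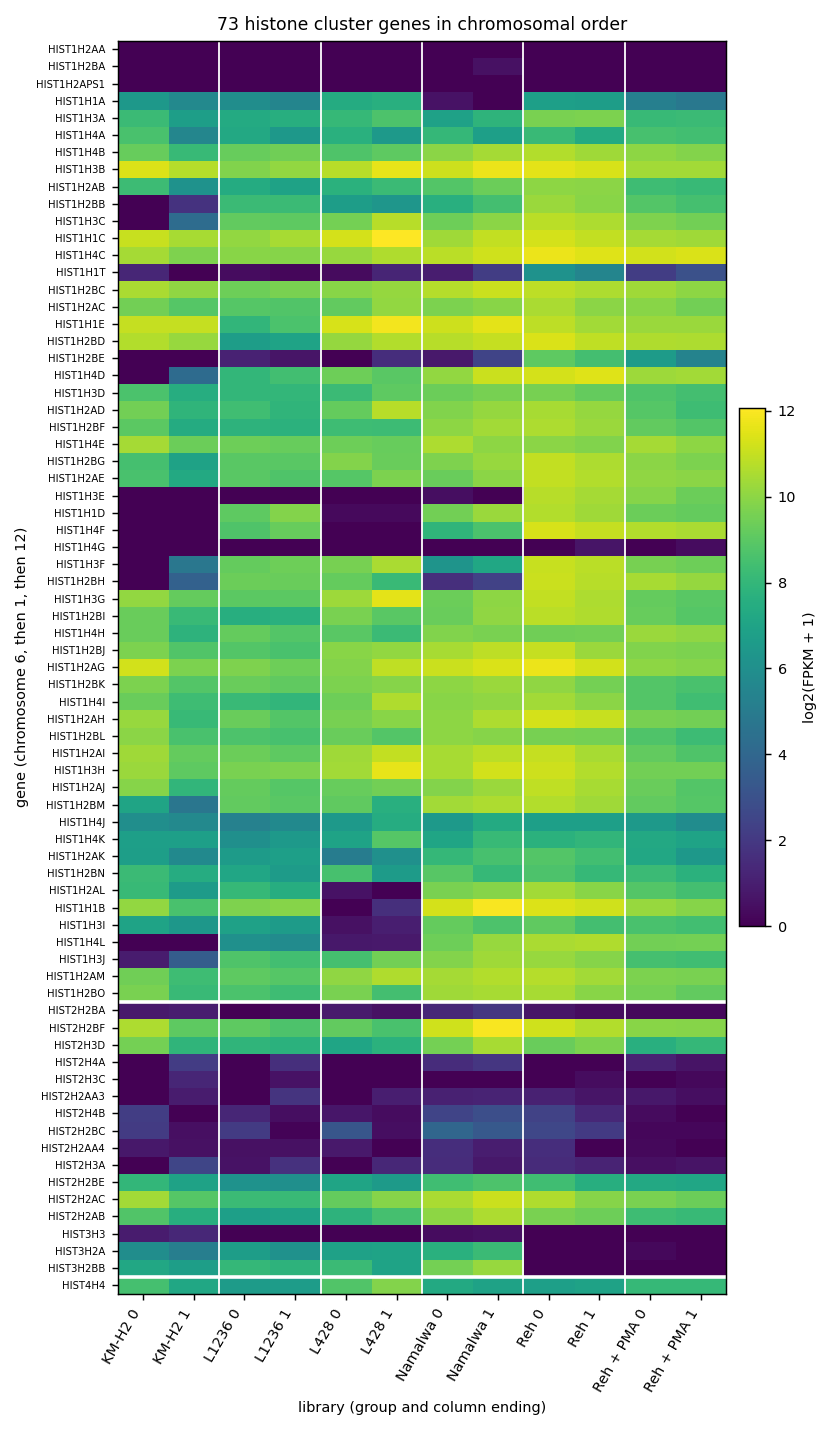
Level of each of the 73 genes (rows, in chromosomal order) in each of the 12 libraries (columns), as log2(FPKM + 1) by colour; white lines separate chromosomes and groups. Dark blocks amid bright rows are genes at or near 0 in 1 or more lines, such as HIST1H3E to HIST1H4F in KM-H2 and L428.

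Some copies could not be measured apart. Of the 70 annotated members, 33 shared no stretch of 50 bases with another annotated gene and 7 shared at least 90% of theirs. HIST2H2AA3 and HIST2H2AA4, HIST2H3A and HIST2H3C, and HIST2H4A and HIST2H4B are pairs of close copies, in which HIST2H2AA3 shared 52.4% of its stretches and the other 5 at least 99.2%, and each of these 6 genes was at or below 6.48 FPKM in every library. Their levels are uncertain, because reads that fit both copies may have been split or dropped. HIST1H4J and HIST1H4K, which shared 92.1% and 92.6% of their stretches, are uncertain for the same reason. Another 30 members, HIST2H2AA3 included, shared some but under 90% of their stretches. Among them HIST2H3D shared 78.3%, HIST2H2BF 72.7%, HIST1H2AJ 66.3%, HIST1H2AI 63.5% and HIST1H2BK 57.2%. Their single-gene levels are less certain than those of members that shared none.

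Summed over all 73 genes, the level was 86577 and 69269 FPKM in Reh (libraries 0 and 1), 53292 and 71971 FPKM in Namalwa, 34448 and 50107 FPKM in L428, 38763 and 19444 FPKM in KM-H2 and 23269 and 23008 FPKM in L1236. PMA-treated Reh had 42254 and 37250 FPKM. Every HL library lay below every untreated control library, and both PMA libraries lay below both untreated Reh libraries. The mean sum of L1236 was 29.7% of the Reh mean, that of KM-H2 37.3%, that of L428 54.3% and that of Namalwa 80.4%. The KM-H2 duplicates were the farthest apart, with 52 of the 67 tested members lower in library 1 and a median difference of -0.99 on the log2(FPKM + 1) scale. Low levels in such bulk libraries cannot be told apart as fewer cells in DNA replication or less histone mRNA per cell.

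**Figure D2:**
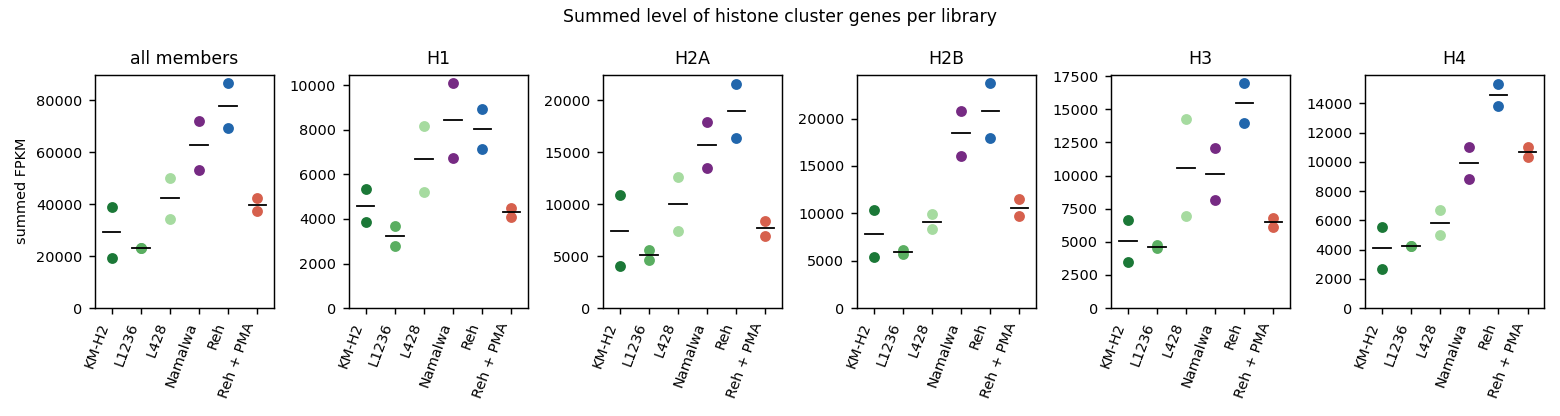
Summed FPKM of all 73 genes and of each histone type; each point is a library, the short line is the mean of the 2 libraries of a group, and each panel has its own scale starting at 0. Reh libraries held 69269 to 86577 FPKM in all, and H4 kept the largest share of its Reh mean after PMA, 73.3%.

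The first comparison asked how an inflammatory stimulus changed these genes in Reh. Histone mRNAs were lower in PMA-treated cells. With limma on log2(FPKM + 1), fitted to the 14679 genes that reached 1 FPKM in at least 2 libraries, 67 members were tested and 18 of them fell at an adjusted p under 0.05, against 17.2% of all genes that did. In the other direction 0 of 67 members passed the limma test, against 14.7% of all genes, and 1 had an unadjusted p under 0.05. The median difference was -1.03 over the 67 members and -0.03 over all genes tested. In 56 members both PMA libraries lay below both Reh libraries, which held for 40.1% of all genes; the opposite order held for 5 members and 31.8% of all genes. The summed level in treated cells was 53.4% of the Reh mean for H1, 40.5% for H2A, 50.8% for H2B, 42.0% for H3 and 73.3% for H4.

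Among linker histones, HIST1H1A, which encodes H1.1, was at 112 and 103 FPKM in Reh and at 35.7 and 27.2 FPKM after PMA. The groups did not overlap, and the gene fell by 1.75 ± 0.30 (SE, n = 2 and 2) on the log2(FPKM + 1) scale (limma, adjusted p = 0.0029). HIST1H1T, the testis H1, went from 70.6 and 44.5 FPKM to 3.55 and 6.95 FPKM (log2 difference -3.25 ± 0.56, limma adjusted p = 0.0028); in the other lines it was at most 3.61 FPKM. HIST1H1D, which encodes H1.3, stood at 1633 and 1302 FPKM before and 661 and 596 FPKM after PMA, and fell by 1.21 ± 0.31 (limma adjusted p = 0.017). The abundant HIST1H1E did not pass the test, at 1885 and 1323 FPKM in Reh and 1224 and 1226 FPKM after PMA.

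Of 16 tested H2A genes 5 fell, and of 19 tested H2B genes 4 fell, beside 17.2% of all genes. HIST1H2AI was at 2048 and 1426 FPKM in Reh and at 568 and 420 FPKM after PMA (log2 difference -1.80 ± 0.48, limma adjusted p = 0.019), and HIST1H2AK went from 462 and 335 FPKM to 147 and 86.5 FPKM (-1.80 ± 0.45, limma adjusted p = 0.016). HIST1H2BE showed the largest H2B difference, from 532 and 355 FPKM to 97.1 and 41.0 FPKM (-2.76 ± 0.66, limma adjusted p = 0.013). These 3 genes had no overlap between treated and untreated libraries.

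Of 12 tested H3 genes 4 fell, namely HIST1H3G (2002 and 1521 FPKM to 581 and 504 FPKM), HIST2H3D, HIST1H3A and HIST1H3E. Of 14 tested H4 genes 2 fell, no more than the 17.2% of all genes. HIST1H4I went from 1332 and 994 FPKM to 453 and 329 FPKM (log2 difference -1.57 ± 0.48, limma adjusted p = 0.034). HIST1H4L went from 1467 and 1564 FPKM to 719 and 742 FPKM (-1.05 ± 0.25, limma adjusted p = 0.013). The H4 median difference was -0.58. HIST1H4C, the most abundant H4 gene, was at 3391 and 2850 FPKM in Reh and 2434 and 2695 FPKM after PMA. HIST4H4 was at 112 and 121 FPKM in Reh and 265 and 266 FPKM after PMA, but its difference of 1.18 ± 0.45 did not pass (limma adjusted p = 0.075).

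Of the 18 members called in limma, 0 passed in every alternative setting, counting the omission of single libraries. Leaving out Reh library 0 or PMA library 1 left 2 calls, HIST1H1A and HIST1H1T. Without PMA library 0 there were 5 calls, and without Reh library 1 there were 7. Leaving out either KM-H2 library, which enters through the shared estimate of spread, gave 28. Both PMA libraries were among the 4 with low ribosomal protein genes, so that property and the treatment cannot be told apart here.

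**Figure D3:**
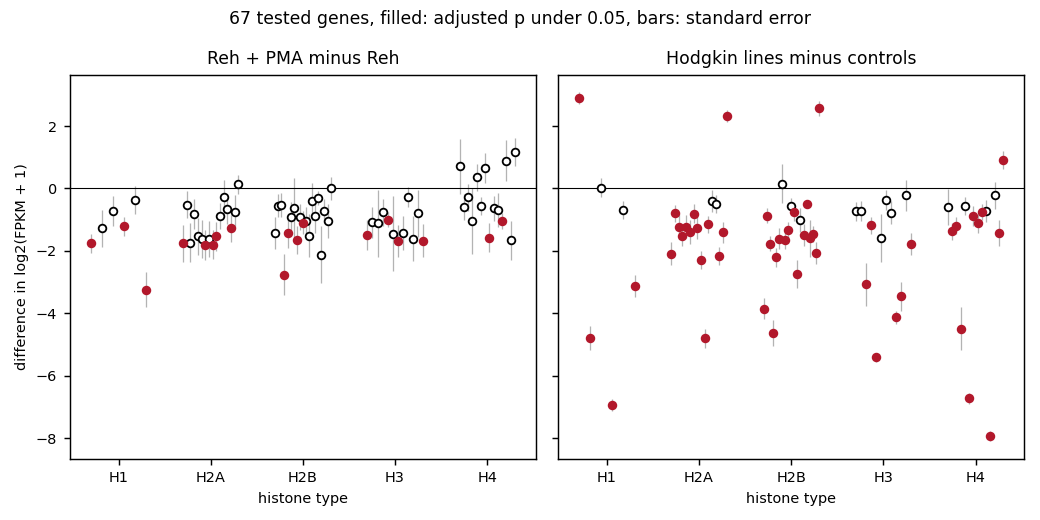
Difference in log2(FPKM + 1) for each of the 67 tested genes (points, by histone type), for PMA-treated minus untreated Reh on the left and HL minus control lines on the right; bars are standard errors and filled points had an adjusted p under 0.05. On the left 18 genes are filled, all below 0, and on the right 46 are filled below 0 and 4 above it.

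Genes that act on histone mRNAs, and genes of DNA replication, moved in the same comparison. SLBP, the stem-loop binding protein, was at 91.4 and 99.0 FPKM in Reh and 45.0 and 37.6 FPKM after PMA, and fell by 1.19 ± 0.30 (limma adjusted p = 0.017). NPAT was at 17.9 and 14.6 FPKM and then at 9.57 and 9.71 FPKM (log2 difference -0.69 ± 0.21, limma adjusted p = 0.036). In the list of 12 genes of histone mRNA transcription and 3′ processing, 6 fell and 1, LSM10, rose (17.2% and 14.7% of all genes), and the median difference was -0.57. POU2F1, which binds the octamer, fell most, from 22.7 and 15.8 FPKM to 3.86 and 5.00 FPKM. Of 19 S-phase and cell cycle genes 11 fell and 1 rose, beside the same shares of all genes. The riser was CDKN1A, which encodes a CDK inhibitor, at 35.9 and 74.1 FPKM before and 328 and 286 FPKM after PMA. E2F1 went from 58.8 and 48.0 FPKM to 9.04 and 7.84 FPKM, and PCNA, the replication clamp, from 434 and 452 FPKM to 122 and 120 FPKM. Of the 37 genes named as called after PMA, members included, 6 passed in every setting, namely E2F1, CCNE1, CCNE2, CDKN1A, POU2F1 and H1F0; the calls of SLBP, NPAT and LSM10 were lost in at least 1. The part of these genes in the histone levels was not tested.

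Of 11 tested replication-independent histone genes, which lie outside the clusters, 7 had a negative difference after PMA and the median was -0.31. In limma 3 rose and 0 fell, and 2 had a lower level at an unadjusted p under 0.05. H3F3B, a source of H3.3, was at 162 and 209 FPKM in Reh and 468 and 443 FPKM after PMA (log2 difference 1.30 ± 0.42, limma adjusted p = 0.042). H1F0, the H1 of resting cells, was at 19.0 and 7.84 FPKM and then at 42.7 and 62.8 FPKM. H3F3C was the other riser, but it was listed at 0 in Reh, and H3F3A was at 0.0023 FPKM in one untreated Reh duplicate and at 10.6 FPKM in the other, so neither level is reliable. Of 9 tested members known to yield polyadenylated mRNA as well, 1 fell, HIST1H2BK (1063 and 755 FPKM to 454 and 382 FPKM), and their median difference was -0.55. Among histone chaperones 2 of 8 fell (ASF1B and CHAF1A) and 1 rose (ASF1A), and in the list for histone mRNA decay 1 of 5 fell (DIS3L2). Over all genes, 17.2% fell and 14.7% rose. The calls of H3F3B, H3F3C, HIST1H2BK, ASF1A, ASF1B, CHAF1A and DIS3L2 were each lost in at least 1 setting.

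The second comparison set the HL lines against the untreated control lines. Histone mRNAs were lower in the HL lines, by a median of -1.26 on the log2(FPKM + 1) scale over 67 members, with 0.02 over all genes. In limma 46 members fell, against 25.8% of all genes, and 4 rose, against 29.6%. The 46 include HIST1H3E and HIST2H2BA, which passed the filter on low values through Reh and Namalwa alone, respectively. In 20 members all 6 HL libraries lay below all 4 control libraries, which held for 8.06% of all genes; the opposite order held for 0 members and 9.5% of all genes. Line by line, both libraries lay below every control library for 49 members in L1236 (23.3% of all genes), 37 in KM-H2 (22.0%) and 31 in L428 (22.7%). Both lay above every control library for 2 members in L428, HIST1H1A and HIST4H4, against 25.4% of all genes, and for 0 members in KM-H2 (25.6%) and L1236 (25.7%). Without the 2 HL libraries with low ribosomal protein genes, 44 fell and 3 rose.

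The decrease was seen in all types, with 3 of 6 H1, 13 of 16 H2A, 15 of 19 H2B, 6 of 12 H3 and 9 of 14 H4 genes called, beside 25.8% of all genes. These counts hold HIST1H3E among H3 and HIST2H2BA among H2B, whose calls followed from the filter. HIST2H2BF ranged from 388 to 1515 FPKM over the HL libraries, with a median of 530.4 FPKM, and from 1652 to 3905 FPKM in the controls (log2 difference -2.07 ± 0.34, n = 6 and 4 libraries, in duplicate per line, limma adjusted p = 0.00082). The errors given here reflect the spread between duplicates and not between lines. HIST2H2AB ranged from 112 to 435 FPKM in HL and from 667 to 1524 FPKM in controls (-2.16 ± 0.27, limma adjusted p = 0.00015), and HIST1H2AK from 32.4 to 111 FPKM against 262 to 462 FPKM (-2.29 ± 0.29, limma adjusted p = 0.00015). In each of these 3 genes the HL and control ranges were separate. HIST1H4C, at 847 to 1555 FPKM in HL and 1822 to 3391 FPKM in controls, fell by 1.19 ± 0.28 (limma adjusted p = 0.0057).

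HIST1H1C and HIST1H3B showed overlap. HIST1H1C ranged from 1110 to 4266 FPKM in HL and 1310 to 2520 FPKM in controls, with a difference of 0.02 ± 0.31 that did not pass (limma adjusted p = 0.96). HIST1H3B ranged from 868 to 3096 FPKM in HL and from 2291 to 3348 FPKM in controls (-0.71 ± 0.32, limma adjusted p = 0.086). HIST1H2BD was at 105 and 128 FPKM in L1236, 1118 to 1624 FPKM in KM-H2 and L428 and 1719 to 2629 FPKM in the controls, with no overlap, and fell by 1.77 ± 0.24 (limma adjusted p = 0.00025).

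Of the 4 genes higher in HL, 3 stood differently against the 2 control lines. HIST1H1A was at 44.5 to 197 FPKM in HL, at 112 and 103 FPKM in Reh and at 0.504 and 0 FPKM in Namalwa. HIST3H2A was at 34.9 to 127 FPKM in HL and at 197 and 300 FPKM in Namalwa, and HIST3H2BB at 106 to 298 FPKM and 754 and 1162 FPKM, while both were listed at 0 in Reh. In each of these 3 genes 1 control line was at or near 0 and the other was not. HIST4H4 was at 435 and 912 FPKM in L428, 360 and 144 FPKM in KM-H2, 96.6 and 99.5 FPKM in L1236 and 112 to 162 FPKM in the controls, so that the HL lines and not the control lines stood apart from each other (log2 difference 0.91 ± 0.29, limma adjusted p = 0.024). This call was lost in at least 1 setting.

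Of 12 genes in the list for histone mRNA transcription and 3′ processing 7 fell in HL and 1 rose, while 25.8% of all genes fell and 29.6% rose. SLBP was at 38.4 to 68.3 FPKM in HL and 61.7 to 115 FPKM in controls (log2 difference -0.74 ± 0.20, limma adjusted p = 0.010), a call lost in at least 1 setting. Of 19 S-phase and cell cycle genes 13 fell; in the other direction 0 passed in limma, and 0 had an unadjusted p under 0.05. Of 8 chaperones 6 fell. NASP, which carries H3 and H4, fell by 1.52 ± 0.28 (limma adjusted p = 0.0016). Of 5 decay genes 1 rose, ERI1, the exonuclease that trims histone mRNA ends, and 1 fell. Of 11 replication-independent genes 5 fell and 2 rose, and of the 9 polyadenylated members 5 fell and 1 rose; the shares that rose were below that of all genes. The part of these genes in the histone levels was not tested.

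Single histone genes were near 0 in 1 line and abundant in another. A member was counted as near-absent in a group when its mean there was under 1% of its highest group mean and the latter was at least 100 FPKM. Of 59 members with such a high mean, 17 were near-absent in at least 1 group. The share of all genes meeting this rule was not computed, so whether such numbers are unusual cannot be said. How many near-absent neighbours to expect was not computed either. There were 11 in KM-H2, 8 in L428, 4 in Namalwa, 2 in L1236 and the same 2 in both Reh groups. Just inside the limit was HIST1H3F in KM-H2, at 0.667% of its Reh mean, and just outside was HIST1H4L in L1236, at 4.01% of its Reh mean. Fitted log2 differences of such genes depend on the pseudocount, so levels are given in their place.

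Some near-absent genes lay side by side in KM-H2, L428 and the Reh groups, whereas the 4 of Namalwa and the 2 of L1236 each stood alone. In L428, 4 neighbours between positions 27833095 and 27841312 of chromosome 6, spanning 8.22 kb, were low. HIST1H2AL was at 0.482 and 0 FPKM, HIST1H1B at 0 and 2.06 FPKM, HIST1H3I at 0.472 and 0.992 FPKM and HIST1H4L at 0.740 and 0.794 FPKM. In the other lines HIST1H1B, which encodes H1.5, stood at 1113 and 392 FPKM in KM-H2, 855 and 923 FPKM in L1236, 2490 and 3880 FPKM in Namalwa and 2732 and 2369 FPKM in Reh. The members on either side of the run were present in L428, HIST1H2BN at 368 and 98.2 FPKM and HIST1H3J at 360 and 726 FPKM.

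In KM-H2, 5 neighbours between positions 26225363 and 26252303 of chromosome 6, spanning 26.9 kb, were near-absent, leaving aside HIST1H4G, which was under 1 FPKM everywhere. HIST1H3E, HIST1H1D and HIST1H4F were listed at 0 in both KM-H2 libraries, and HIST1H3F and HIST1H2BH at 0 in library 0 and at 26.3 and 12.3 FPKM in library 1. The flanking HIST1H2AE was at 392 and 162 FPKM and HIST1H3G at 1092 and 583 FPKM. L428 shared the first 3 of these 5 genes, with HIST1H3E and HIST1H4F listed at 0 and HIST1H1D at 0.240 and 0.248 FPKM, but held HIST1H3F at 764 and 1490 FPKM. KM-H2 had 3 further pairs of near-absent neighbours, HIST1H2BB with HIST1H3C, HIST1H2BE with HIST1H4D, and HIST1H4L with HIST1H3J.

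The duplicates of KM-H2 differed in these genes. In library 1, HIST1H2BB, HIST1H3C, HIST1H4D, HIST1H3F, HIST1H2BH and HIST1H3J stood at 2.40 to 26.3 FPKM, which was 1.47% to 2.99% of their L428 means, whereas library 0 listed 5 of them at 0 and HIST1H3J at 0.869 FPKM. The KM-H2 genes that were also near-absent in L428 were at 0 in library 1 as well. KM-H2 library 0 appeared shallower, since the value of 1 read was 4.08 times that in PMA library 0, judged on 961 low rows, against 2.69 times in KM-H2 library 1. The part of depth or of reads from another library in these low values was not tested.

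**Figure D4:**
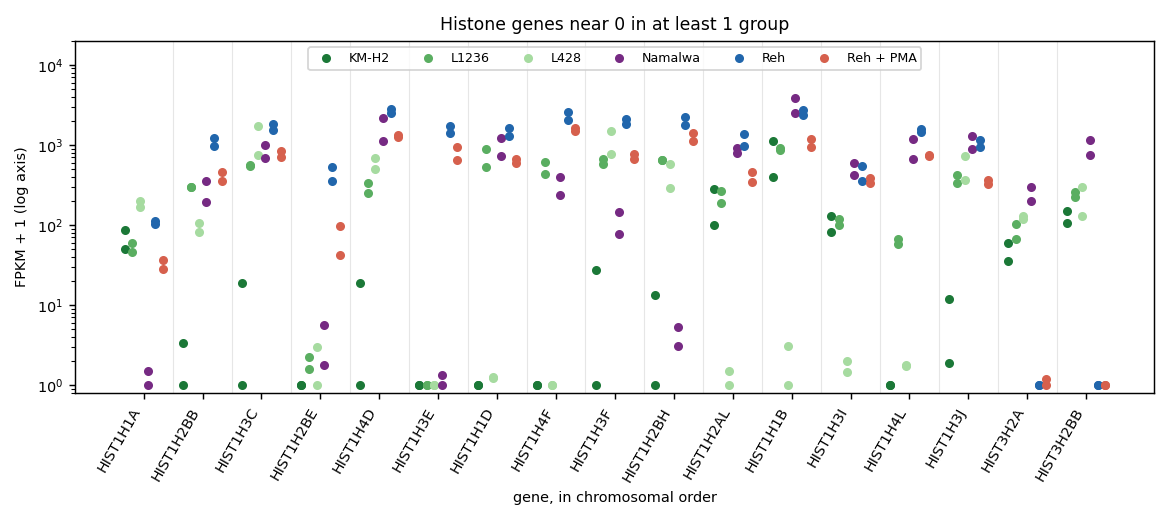
FPKM + 1 on a log axis for the 17 genes near-absent in at least 1 group, in chromosomal order; each point is a library, coloured by group. HIST1H3E and HIST1H2BE are high in the Reh groups alone, and HIST3H2A and HIST3H2BB lie at the bottom in those groups.

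HIST1H3E and HIST1H2BE were abundant in Reh and near-absent in the other 4 lines. HIST1H3E was at 1725 and 1400 FPKM in Reh and 933 and 646 FPKM after PMA, at 0.356 and 0 FPKM in Namalwa and listed at 0 in all 6 HL libraries. HIST1H2BE was at 532 and 355 FPKM in Reh and at most 4.57 FPKM in every library of the other lines. HIST1H3E passed the filter on low values through the Reh groups alone, so its calls against Reh and among the 46 members lower in HL followed from that. The reverse was seen for the divergent pair HIST3H2A and HIST3H2BB, listed at 0 in untreated Reh and in 3 of the 4 values of the treated cells, with 0.204 FPKM of HIST3H2A in the remaining one. The letters searched above occurred in near-absent genes and in others. TATAAA was present in 9 of 16 annotated near-absent genes and in 23 of 40 others, CCAAT in 15 of 16 and 34 of 40, ATTTGCAT in 3 of 16 and 14 of 40, AAACACA in 3 of 16 and 2 of 40, and the stem-loop in 14 of 16 and 39 of 40, with no test.

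Members were called different between the 2 control lines no more often than all genes, though some single members were far apart. Between Namalwa and Reh, 3 of 67 members were higher in Namalwa (10.3% of all genes) and 9 lower (14.7%), with a median difference of -0.19. Both Namalwa libraries lay above both Reh libraries for 15 members (29.3% of all genes) and below them for 25 (32.9%). The 3 were HIST3H2A, HIST3H2BB and the pseudogene HIST2H2BA. HIST2H2BA exceeded 1 FPKM in the 2 Namalwa libraries alone (at most 2.77 FPKM) and passed the filter through them, so its calls here and among the 46 members lower in HL followed from that; with a filter on the mean, 2 members were higher in Namalwa. Among the 9, HIST1H2BH was at 2.04 and 4.28 FPKM in Namalwa and 2202 and 1757 FPKM in Reh, HIST1H3F at 75.4 and 146 FPKM against 2133 and 1802 FPKM, and HIST1H4F at 236 and 393 FPKM against 2561 and 2057 FPKM. HIST1H2BH and HIST1H3F adjoin each other, and HIST1H3G on the far side of HIST1H2BH stood at 649 and 1031 FPKM in Namalwa. HIST1H3A was at 117 and 231 FPKM in Namalwa and 800 and 808 FPKM in Reh (log2 difference -2.28 ± 0.48, limma adjusted p = 0.0071). The calls of HIST1H3A, HIST1H3F and HIST2H2BA were each lost in at least 1 setting.

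Among the HL lines, 27 of 67 members differed by limma's F test (51.4% of all genes), and 18 did without the 2 libraries with low ribosomal protein genes. The share of members was below that of all genes. The largest differences were among the near-absent genes. Apart from these, HIST1H2BD was at 105 and 128 FPKM in L1236 and 1118 to 1624 FPKM in the other lines (F test, limma adjusted p = 6.95e-05), and HIST1H2BM was at 132 and 25.7 FPKM in KM-H2, 564 and 502 FPKM in L1236 and 546 and 193 FPKM in L428 (F test, limma adjusted p = 0.010).

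The make-up of H1 mRNA differed from line to line. In L428, HIST1H1C made up 50.1% and HIST1H1E 47.0% of the summed H1 FPKM, as means of the 2 libraries, with HIST1H1B at 0.013% and HIST1H1D at 0.0038%. KM-H2 had 45.1% HIST1H1E, 37.9% HIST1H1C and 15.5% HIST1H1B, with HIST1H1D listed at 0. L1236 was the line with least HIST1H1E, at 9.69%, beside 39.3% HIST1H1C, 27.7% HIST1H1B and 21.7% HIST1H1D. In Namalwa and Reh HIST1H1B led, at 37.6% and 31.9%, and HIST1H1D made up 11.4% and 18.3%. HIST1H1E itself, at 241 and 399 FPKM in L1236, was at 2033 and 2013 FPKM in KM-H2 and 2540 and 3726 FPKM in L428 (F test, limma adjusted p = 0.00050). After PMA the Reh make-up was 31.4% HIST1H1C, 28.6% HIST1H1E, 24.6% HIST1H1B and 14.6% HIST1H1D, and no share was tested.

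**Figure D5:**
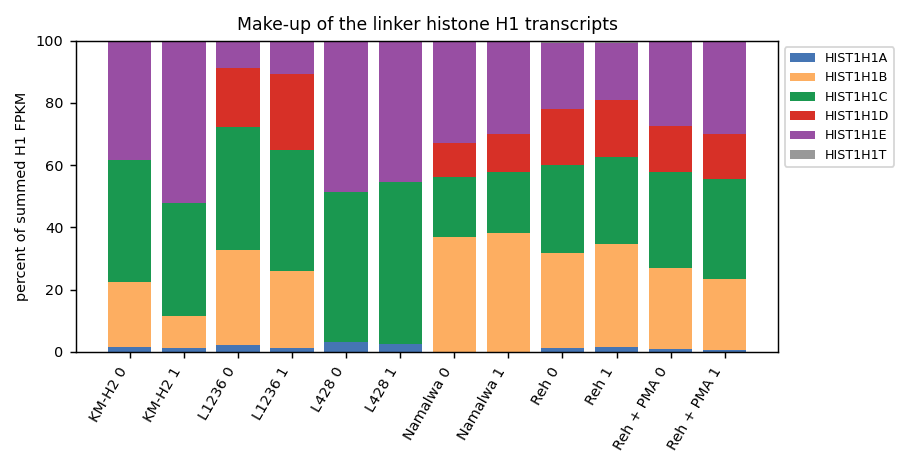
Share of each of the 6 H1 genes in the summed H1 FPKM of each library, in percent, as stacked bars that reach 100. HIST1H1B (orange) is missing from both L428 bars, HIST1H1D (red) from the KM-H2 and L428 bars, and L1236 has the smallest part of HIST1H1E (purple).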

How the data were processed

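Duplicate stranded total RNA libraries, depleted of ribosomal RNA, were made from each of 6 groups. The authors deposited FPKM per gene; the submitters' processing notes name TopHat2 2.0.11, Cuffnorm 2.2.1, bedtools and hg19 (GRCh37), and the gene annotation was not given in the sources used here. Columns were matched to groups, since their endings match no single sample title. FPKM were tested as log2(FPKM + 1) with limma 3.58.1 in R 4.3.3 (empirical Bayes with trend, 1 fit of 6 groups, Benjamini-Hochberg over 14679 genes with at least 1 FPKM in at least 2 libraries, two-sided, adjusted p threshold 0.05). A pseudocount of 1 understates changes of low genes. The step was tested on simulated data. Sequences, positions and 50-base stretches were read from GRCh37 with GENCODE v44lift37 (Python 3.11.15). Read totals are unknown, so no counting intervals are given; 2 libraries per group limit the precision.

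The members and gene lists were chosen with earlier results of these data known. Genes named were the 12 members with the highest mean FPKM, up to 3 called members per type, direction and comparison, the polyadenylated members, SLBP, NPAT and up to 4 called genes per other list; others named for their levels or neighbours (the near-absent genes, PCNA, HIST1H2BM and those beside them) were chosen after their values were seen. Alternatives covered the pseudocount, the filter, scaling, the variance model, a 2-fold limit and leaving out each library; scaling to summed FPKM and leaving out the 2 HL libraries with low ribosomal protein genes were added after seeing the data.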

Additional observations from a re-analysis of the deposited data

Results flagged for a closer look

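HIST4H4, the only member of cluster 4, lay on opposite sides of the control libraries in different HL lines. Both L428 libraries (435 and 912 FPKM) lay above and both L1236 libraries (96.6 and 99.5 FPKM) below every untreated control library (112 to 162 FPKM), and the HL lines differed in limma's F test (adjusted p = 0.0029). That test compares the HL lines with each other. The L1236 mean was 83.8% of the Reh mean, and its place below the controls was not tested. The share of all genes with such a split was not computed. L428 library 1 and L1236 library 1 were among the libraries with low ribosomal protein genes; the library 0 values, 435 and 96.6 FPKM, differed in the same direction. The call of HIST4H4 as higher in HL than in controls was lost in at least 1 setting.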

How the results depend on the processing

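The PMA comparison depended on the settings. Its 18 lower members became 11 with a pseudocount of 0.1 and 7 with no filter on low values. The count was 4 with quantile normalization and 7 with libraries scaled to summed FPKM. It was 21 with upper-quartile scaling and 22 with empirical Bayes without trend, and stayed at 18 with a filter on the mean and with a 2-fold limit. The cause was not tested. Leaving out each library in turn gave 2 to 28 lower and 0 to 1 higher members, the latter HIST4H4. The number of lower members in HL was 37 to 49 over 9 other settings and 33 to 53 when a library was left out, and of higher members 3 to 4 and 3 to 5. Namalwa against Reh gave 2 to 4 higher and 7 to 10 lower members over 8 settings, and 2 to 4 and 6 to 9 when a library was left out; differences among HL lines gave 18 to 30 and 18 to 33. Of the named members called, 29 of 36 in HL and 8 of 12 in Namalwa against Reh passed in every setting; of all 37 named genes called after PMA, 6 did. No called difference of a named gene changed direction in the settings run, but some that were not called did, such as that of HIST1H1C in HL without L428 library 1. The direction of called members that were not named was not followed over the settings. Upper-quartile scaling moved the median of all genes in the PMA comparison to -0.12. No paired analysis was possible because the column endings match no single replicate number of the titles, and the planned replicate block was not run. When a library was left out, the lone library of its group was assumed to vary like the other groups.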
